A study of Mus musculus with 9 samples.

Results

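The 9 genes described here encode the enzymes and carriers with which the retinal pigment epithelium (RPE) handles vitamin A: Rpe65, Lrat, Rdh5, Rdh10, Rdh11, Dhrs3, Rlbp1, Stra6 and Rbp4. They were chosen by their symbol in the deposited array files. All 9 are on the array, each with 1 probe, which makes 9 probes of 39429 and 9 genes of 31829. Gene expression came from 9 Agilent 2-colour mouse arrays, 3 each for RPE, the choroid (CH) and the photoreceptors (PR), all from female C57BL/6 mice (J substrain, by the study's text). The sample labels give an age of 6 months, give or take 2 weeks, and the study's text a younger one. The labels name no treatment and no transgene. Each sample was cut by laser from the cryosections of 1 whole eye, and the RPE was removed before the CH was cut. Amplified tissue RNA carried Cy5 (red). The other channel, Cy3 (green), held the same pool of mouse RPE and CH RNA on all arrays as a common reference, and dyes were never swapped.

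Light turns the 11-cis-retinal bound to visual pigment into all-trans-retinal, and photoreceptors rely largely on the RPE to turn it back. The all-trans-retinol they release is esterified in the RPE by Lrat, isomerised to 11-cis-retinol by Rpe65, oxidised to 11-cis-retinal by retinol dehydrogenases such as Rdh5 and returned to the photoreceptors. Fresh vitamin A arrives from the blood on the carrier Rbp4 and enters the RPE through its membrane receptor Stra6.

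All values below are log2(Cy5/Cy3) after background correction and loess unless another scale is named. Since loess centres each array on its own trend, 0 means the usual ratio of that array at that brightness, not equal signal in both channels. A probe was called when the fold change (FC) between tissue means was above 2.5 and the adjusted p-value below 0.01 in a limma fit over the 9 arrays, with Benjamini-Hochberg (B-H) adjustment over all 39429 probes. Of the spots that are not controls, between 63.1% and 91.8% were well above background in Cy5, with RPE replicate 2 the highest. Precision is limited by having 3 arrays per tissue. The sources do not say whether the samples of a tissue came from separate mice, so the p-values measure the spread between these samples. In dissected tissue, fewer cells of a type and less RNA per cell cannot be told apart.

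Of the 9 genes, 5 were called higher in RPE than in CH, namely Rdh10, Lrat, Rlbp1, Rpe65 and Rdh5. Of all probes on the array, 0.185% were called in this direction, or 73 probes. Of the 5, Rdh10 and Rlbp1 had no saturated Cy5 spot, while Rpe65, Rdh5 and Lrat had some. Against the PR, 7 of the 9 were called higher in the RPE, where 10.2% of all probes were called. The same count of 7 was reached for the CH against the PR, where 12.0% of all probes were called. By limma, 0 of the 9 were called lower in any of the 3 comparisons, where 1.55%, 5.22% and 6.40% of all probes were called lower for RPE against CH, RPE against PR and CH against PR. At an unadjusted p under 0.05 it was 0, 0 and 1 in the same order, the 1 being Rdh11. The median difference of the 9 genes was 1.50 for the RPE against the CH, 5.54 for the RPE against the PR and 3.94 for the CH against the PR, beside medians of 0.04, -0.01 and -0.06 over all probes. The first of these medians is the value of Rdh5 and the other two are those of Rpe65, genes with saturated spots.

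**Figure D1:**
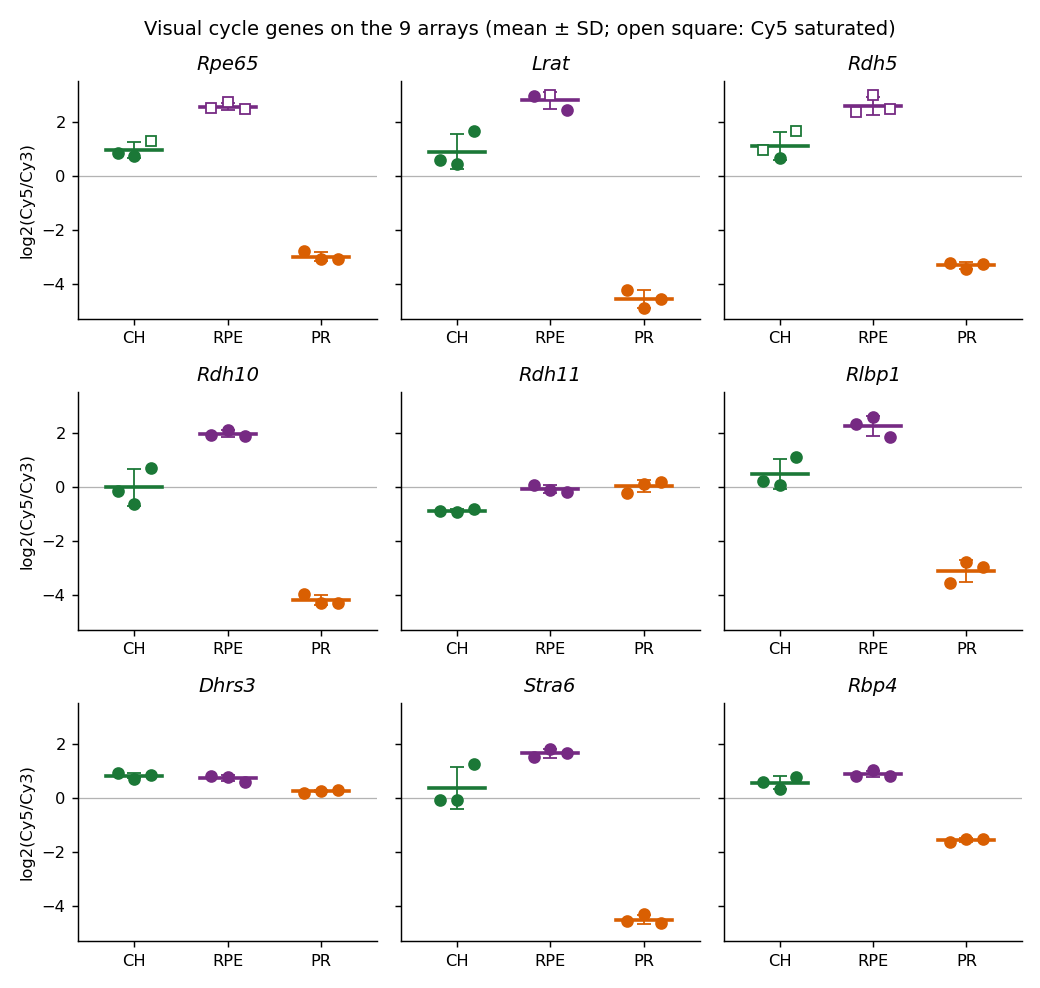
The log2(Cy5/Cy3) of each of the 9 genes (vertical axis) on the 3 CH, 3 RPE and 3 PR arrays (horizontal axis), with the tissue mean as a line and the SD as a bar. Open squares are spots with a saturated Cy5 signal. In 7 panels the RPE is highest and the PR lowest; Dhrs3 is nearly level, and in Rdh11 the CH is lowest.

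The upstream sequences of 4 of the 5 genes called against the CH are shown because their ratios were called higher in RPE than in both neighbouring layers. With the Cy5 signal alone, 0 of the 9 genes were called against the CH, as given below. RefSeq holds a promoter entry for 8 of the 9 genes, with 15 starts in all, and Rdh10 has no entry here. Each line gives the 250 bases before the start of the gene, 5′ to 3′ along the gene, on build GRCm38.p6. Capitals mark matches, on either strand, to TAATCC (OTX2 and CRX), CATGTG or CACGTG (MITF) and AACAAT (SOX factors), the motifs searched.
Rpe65 (chr3:159598931-159599180, + strand): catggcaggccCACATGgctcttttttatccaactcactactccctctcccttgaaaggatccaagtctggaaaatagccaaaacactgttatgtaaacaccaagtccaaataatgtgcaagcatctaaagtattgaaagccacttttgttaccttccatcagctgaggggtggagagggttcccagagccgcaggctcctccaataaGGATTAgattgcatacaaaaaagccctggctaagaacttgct
Lrat (chr3:82903975-82904224, - strand): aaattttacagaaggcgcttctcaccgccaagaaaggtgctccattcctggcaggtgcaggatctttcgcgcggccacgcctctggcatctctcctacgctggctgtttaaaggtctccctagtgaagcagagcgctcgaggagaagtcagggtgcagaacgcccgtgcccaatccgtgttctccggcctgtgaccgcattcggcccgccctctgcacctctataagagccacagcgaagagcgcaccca
Rdh5 (chr10:128919298-128919547, - strand): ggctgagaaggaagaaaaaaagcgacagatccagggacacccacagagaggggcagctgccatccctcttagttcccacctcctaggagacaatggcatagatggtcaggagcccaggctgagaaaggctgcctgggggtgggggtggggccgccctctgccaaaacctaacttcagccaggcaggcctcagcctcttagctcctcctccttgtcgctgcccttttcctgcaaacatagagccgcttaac
Rlbp1 (chr7:79387028-79387277, - strand): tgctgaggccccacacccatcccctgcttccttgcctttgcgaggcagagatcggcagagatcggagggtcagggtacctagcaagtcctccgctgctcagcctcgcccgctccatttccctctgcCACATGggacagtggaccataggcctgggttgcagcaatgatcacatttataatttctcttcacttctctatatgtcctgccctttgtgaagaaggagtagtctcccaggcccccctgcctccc
The Rpe65 window held 1 TAATCC, read on the opposite strand, whose first base as printed lay 42 bases before the start, and 1 CATGTG, 239 bases before it. The Rlbp1 window held 1 CATGTG, 124 bases before the start. No match stood in the Lrat and Rdh5 windows, which says only that these letters are not there. Among the other 11 windows, CACGTG occurred at 2 places before 1 of the 2 starts of Rdh11 and no other match was found. No matches overlapped. Of all 32851 promoters in the table, 6.25% held TAATCC, 12.3% CATGTG, 6.02% CACGTG and 9.42% AACAAT in the same window.

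The enzymes that make and isomerise retinyl esters had their highest ratios in RPE and their lowest ratios on the PR arrays. Lrat, lecithin:retinol acyltransferase, makes the esters on which Rpe65 acts. Its log2 ratio was 2.96, 2.98 and 2.42 on RPE arrays 1 to 3, 0.58, 0.45 and 1.63 on the CH arrays and -4.24, -4.88 and -4.57 on the PR arrays. The 3 tissues did not overlap, and CH replicate 3 was the CH array closest to the RPE. The measured difference from the CH was 1.90 (limma, B-H adjusted p = 0.00223). From the PR it was 7.35 (limma, adjusted p = 5.07e-08). The Lrat spot was saturated on RPE replicate 2, so neither size is exact. Its probe lies on chromosome 3 from 82696805 to 82696864 (mm9).

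Rpe65, the isomerohydrolase that turns all-trans-retinyl esters into 11-cis-retinol, read 2.49, 2.71 and 2.45 on the RPE arrays. On the CH arrays it read 0.82, 0.74 and 1.30, and on the PR arrays -2.80, -3.10 and -3.07. Again the tissues kept apart, with a gap of more than 1 on the log2 scale between the lowest RPE array and the highest CH array. The measured difference from the CH was 1.60 (limma, adjusted p = 0.00023). Its Cy5 spot (chromosome 3, 159287714 to 159287773) was saturated on all 3 RPE arrays and on CH replicate 3, so that this size is neither exact nor a bound. The PR spots were not saturated, and the Cy5 signal of Rpe65 was at least 7.18-fold higher in RPE than in PR (adjusted p = 8.45e-09 for the ratio, whose difference was 5.54).

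The dehydrogenases and reductases, which interconvert retinols and retinals, were split. Rdh5 and Rdh10 were called higher in RPE than in either neighbour, and Rdh11 and Dhrs3 were called in no comparison. Rdh5 is the main 11-cis-retinol dehydrogenase of the RPE. Its ratio was 2.34, 2.97 and 2.46 in the RPE, 0.96, 0.67 and 1.67 in the CH and -3.25, -3.45 and -3.26 in the PR. The lowest RPE array stood above the highest CH array, and all PR arrays were far below both. The measured difference from the CH was 1.50 (limma, adjusted p = 0.00243), but the spots (chromosome 10, 128350646 to 128350657) were saturated on all 3 RPE arrays and on CH replicates 1 and 3, and the size is neither exact nor a bound. Against the PR the Cy5 signal was at least 6.93-fold higher, and the ratio differed by 5.91 (adjusted p = 5.07e-08).

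Rdh10, a retinol dehydrogenase that feeds both retinoic acid synthesis and the oxidation of 11-cis-retinol, had no saturated spot. Its ratio was 1.90, 2.11 and 1.90 in the RPE, -0.14, -0.63 and 0.71 in the CH and -3.98, -4.28 and -4.29 in the PR (chromosome 1, 16122062 to 16122121). The RPE arrays lay close together, and the CH arrays were the most scattered. The difference from the CH was 1.99 ± 0.28 (SE), or 3.97-fold (limma, adjusted p = 0.00114). The difference from the PR was 6.15 ± 0.28 (SE), or 71.1-fold in the ratio (adjusted p = 8.37e-08) and 28.5-fold in Cy5 alone.

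Rdh11, a retinol dehydrogenase and retinal reductase that photoreceptors also make, was lowest in the CH. Its ratio (chromosome 12, 80276608 to 80276667) was 0.07, -0.13 and -0.20 in the RPE, -0.89, -0.94 and -0.83 in the CH and -0.22, 0.12 and 0.18 in the PR. The CH arrays lay below all others, and the RPE and PR arrays overlapped. The RPE was 0.80 higher than the CH (limma, adjusted p = 0.00179), an FC of 1.74 that lay under the threshold. For the RPE against the PR the difference was -0.11 (adjusted p = 0.496), with a 95% interval from -0.39 to 0.17, and for the CH against the PR it was -0.91 (adjusted p = 0.000128), an FC of 1.88. Rdh11 was thus the only 1 of the 9 genes with its lowest mean outside the PR.

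Dhrs3, a short-chain reductase that returns retinal to retinol, had the narrowest range. It read (chromosome 4, 144517485 to 144517544) 0.81, 0.79 and 0.59 in the RPE, 0.92, 0.71 and 0.86 in the CH and 0.20, 0.27 and 0.29 in the PR. RPE and CH arrays overlapped, and each PR array was below each of them. The RPE differed from the CH by -0.10 (limma, adjusted p = 0.537), with a 95% interval from -0.32 to 0.12. Against the PR the RPE was 0.48 higher (adjusted p = 0.00234) and the CH 0.58 higher (adjusted p = 0.000622), both far below an FC of 2.5.

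The carriers and the receptor differed in how far they set the RPE apart from the CH. Rlbp1, the retinaldehyde-binding protein CRALBP that holds 11-cis-retinoids in the RPE and in Müller glia, was the only carrier called against the CH. Its ratio was 2.31, 2.56 and 1.84 in the RPE, 0.23, 0.08 and 1.12 in the CH and -3.57, -2.77 and -2.98 in the PR. The tissues did not overlap, and no spot (chromosome 7, 86520067 to 86520126) was saturated. Rlbp1 was 1.76 ± 0.31 (SE) higher in RPE than in CH (limma, adjusted p = 0.00315), or 3.39-fold. Its difference from the PR was 5.34 (adjusted p = 3.59e-07), or 40.6-fold in the ratio and 9.95-fold in Cy5 alone.

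Stra6, the receptor that takes retinol from Rbp4, read 1.50, 1.82 and 1.65 in the RPE, -0.09, -0.09 and 1.27 in the CH and -4.56, -4.31 and -4.62 in the PR. CH replicate 3 came close to the RPE, while the other CH arrays were near 0 (chromosome 9, 58001701 to 58001760). The difference from the CH was 1.29 ± 0.32 (SE), an FC of 2.45 just under the threshold (limma, adjusted p = 0.0164). Without CH replicate 3 it was 1.75 (adjusted p = 0.000107) and passed. Without CH replicate 1 or CH replicate 2 it fell to 1.07 (adjusted p = 0.0595 and 0.0667). Against the PR, Stra6 was 6.15 higher in the RPE and 4.86 higher in the CH (adjusted p = 1.92e-07 and 6.9e-07).

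Rbp4, the carrier of retinol in the blood, read 0.83, 1.03 and 0.81 in the RPE, 0.60, 0.32 and 0.78 in the CH and -1.64, -1.52 and -1.51 in the PR. All RPE arrays were above all CH arrays, by a narrow margin (chromosome 19, 38191120 to 38191179). The difference from the CH was 0.32 (limma, adjusted p = 0.101; 95% interval from 0.04 to 0.61). From the PR, the RPE differed by 2.45 (adjusted p = 1.93e-07) and the CH by 2.12 (adjusted p = 3.69e-07).

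**Figure D2:**
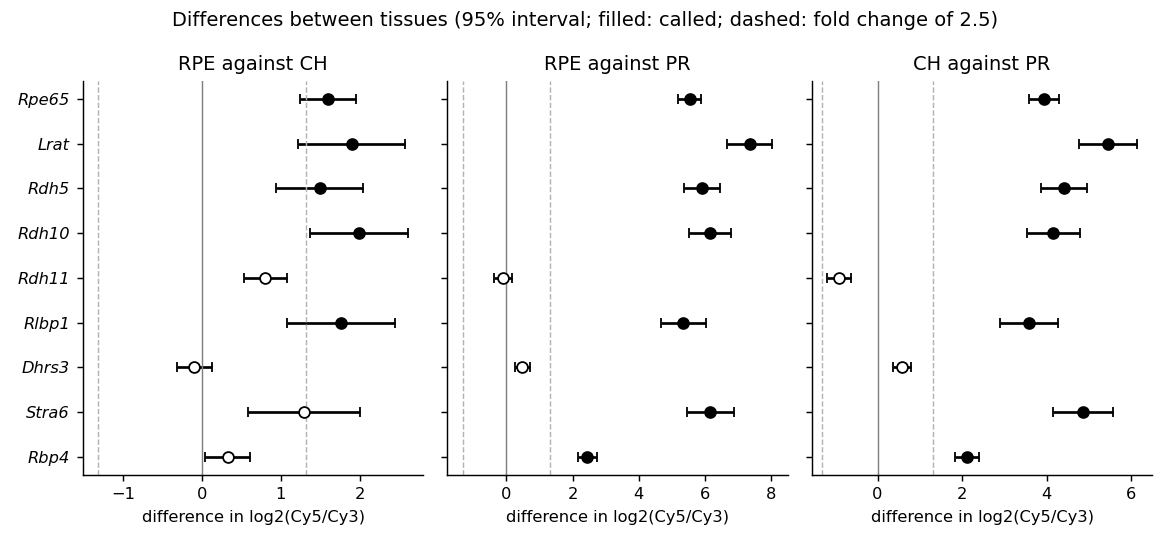
Differences in log2(Cy5/Cy3) between tissue means for each gene (points) with their 95% intervals (bars), in panels for the 3 comparisons. Filled points were called, and dashed lines mark an FC of 2.5. Against the CH, 5 genes are filled; against the PR, all but Rdh11 and Dhrs3 are filled in both panels.

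In 7 genes (Lrat, Rpe65, Rdh5, Rdh10, Rlbp1, Stra6 and Rbp4) the mean was highest in RPE, next in CH and lowest in PR. Of these, the RPE and CH means of Stra6 and Rbp4 were not called different. The CH lay above the PR in all 7, by 5.45 for Lrat, 4.42 for Rdh5, 4.16 for Rdh10, 3.94 for Rpe65 and 3.58 for Rlbp1, each called, with the CH spots of Rdh5 and Rpe65 saturated in part. The comparisons with the CH rest on few arrays. Rpe65 and Rdh10 kept their calls with any of the 9 arrays left out. Lrat lost its call without CH replicate 2 (difference 1.68, adjusted p = 0.0105), RPE replicate 1 (1.81, 0.0114) or RPE replicate 2 (1.80, 0.0117). Rdh5 lost it without CH replicate 1 (1.43, 0.0108), CH replicate 2 (1.28, with an FC under 2.5) or RPE replicate 2 (1.30, 0.0105). Rlbp1 lost it without CH replicate 1 (1.64, 0.0139), CH replicate 2 (1.57, 0.0153), RPE replicate 1 (1.73, 0.0146) or RPE replicate 2 (1.60, 0.0154). So 3 genes were called without CH replicate 1 or RPE replicate 1, 2 without CH replicate 2 or RPE replicate 2, and 6 without CH replicate 3.

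The arrays lay on 3 slides, and both tissues of the RPE to CH comparison were on slide 2 (2 arrays each) and slide 3 (1 array each). Within slide 2 the difference was 1.41 for Rpe65, 1.58 for Lrat, 1.09 for Rdh5, 1.61 for Rdh10 and 1.40 for Rlbp1. Within slide 3 it was 1.97, 2.53, 2.31, 2.74 and 2.48 in the same order, larger for each of them. Stra6 differed by 0.98 and 1.92, Rdh11 by 0.80 and 0.81 and Rbp4 by 0.13 and 0.71 on slides 2 and 3. Dhrs3 differed by -0.19 within slide 2 and by 0.08 within slide 3, and so changed sign. For the PR, slide 3 alone held all 3 tissues, and there the RPE was above the PR by 5.80 for Rpe65, 7.86 for Lrat, 6.42 for Rdh5, 6.40 for Rdh10, 5.34 for Rlbp1, 6.13 for Stra6, 2.55 for Rbp4 and 0.52 for Dhrs3, while Rdh11 differed by -0.25. The CH was above the PR on that slide by 3.83 for Rpe65, 5.33 for Lrat, 4.12 for Rdh5, 3.65 for Rdh10, 2.86 for Rlbp1, 4.21 for Stra6, 1.84 for Rbp4 and 0.44 for Dhrs3. Rdh11 differed by -1.06 between CH and PR there. PR replicates 1 and 3 lay on slide 1, which held no RPE or CH array. For them, tissue and slide cannot be told apart, which limits every comparison with the PR.

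The ratio is made of both channels, and for several of these genes both differed between tissues. The Cy3 channel holds the same reference RNA on every array, yet its signal at several of these probes differed with the tissue on the array. For Rdh5 the scanned Cy3 signal was 41454, 26078 and 35812 on the RPE arrays, 81430, 79381 and 49399 on the CH arrays and 377032, 310936 and 298600 on the PR arrays. The 3 tissues did not overlap. For Rpe65 the RPE arrays ranged from 30962 to 37698, the CH arrays from 57587 to 82538 and the PR arrays from 221752 to 270953. At the Rbp4 probe the RPE arrays lay between 743 and 979, the CH arrays between 780 and 936 and the PR arrays between 820 and 940. There the tissues overlapped.

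After loess and Aquantile normalization, the Cy3 signal was lower on the RPE arrays than on the PR arrays by a log2 difference of -3.12 for Rdh5, -2.69 for Rpe65 and -2.12 for Lrat (limma, adjusted p = 0.00334, 0.00127 and 0.00334). These 3 of the 9 genes were called, where 0.0634% of all probes, 25 in number, were called lower in Cy3. Rlbp1 (-2.03, adjusted p = 0.0191) and Rdh10 (-1.32, 0.00996, with an FC just under 2.5) were not called, Stra6 differed by -0.82, and Rbp4, Rdh11 and Dhrs3 by -0.13 or less in size. For the CH against the PR, 1 of the 9 was called lower in Cy3, Rpe65 at -1.46 (adjusted p = 0.00796), where 0.0558% of all probes were. For the RPE against the CH the Cy3 difference was between -1.24 and -0.85 in Rpe65, Rdh5, Lrat, Rlbp1 and Rdh10, and by limma 0 of the 9 were called, as were 0% of all probes. At an unadjusted p under 0.05 it was 6 of the 9, these 5 and Stra6.

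**Figure D3:**
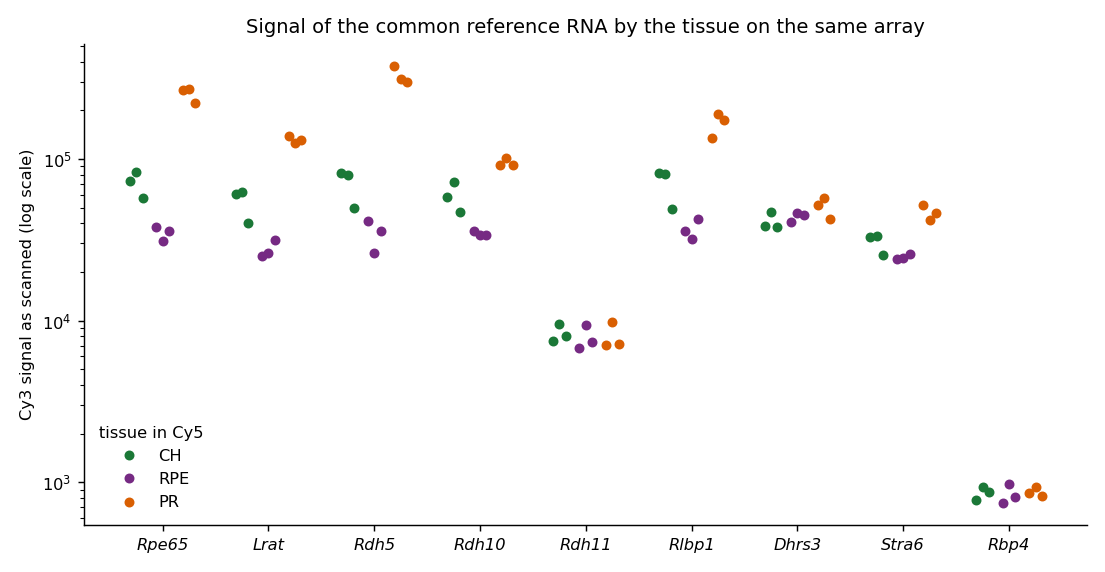
The scanned Cy3 signal of the common reference (log axis) at each gene's probe on the 9 arrays, coloured by the tissue that was in Cy5 on the same array. At Rpe65, Lrat, Rdh5, Rdh10 and Rlbp1 the PR arrays lie highest and the RPE arrays lowest, while Rdh11 and Rbp4 overlap between tissues.

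With the Cy5 channel alone, genes were called against the PR and not against the CH. On Cy5, 7 of the 9 genes were called higher in RPE than in PR (9.07% of all probes) and 7 in the CH than in the PR (11.0%). The differences from the PR were 5.33 for Stra6, 5.23 for Lrat, 4.83 for Rdh10, 3.31 for Rlbp1 and 2.32 for Rbp4. Against the CH, limma called 0 of the 9 (0.0761% of all probes), and 5 were higher at an unadjusted p under 0.05, namely Rpe65, Lrat, Rdh10, Rdh11 and Stra6. Rdh10 came nearest, at 1.14 ± 0.22 (SE) and an adjusted p of 0.0169. The other Cy5 differences from the CH were 0.95 for Stra6, 0.80 for Lrat, 0.71 for Rdh11, 0.70 for Rlbp1, 0.36 for Rpe65, 0.28 for Rbp4, 0.27 for Rdh5 and -0.10 for Dhrs3. The Cy5 spots of Rpe65 and Rdh5 were saturated on all RPE arrays, so their Cy5 difference from the CH has a ceiling. Among genes with no saturated spot, the Cy3 channel made up 60.2% of the ratio's difference between RPE and CH for Rlbp1, 42.5% for Rdh10, 26.6% for Stra6, 12.3% for Rbp4 and 11.7% for Rdh11. Why the reference signal differs was not tested.

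**Figure D4:**
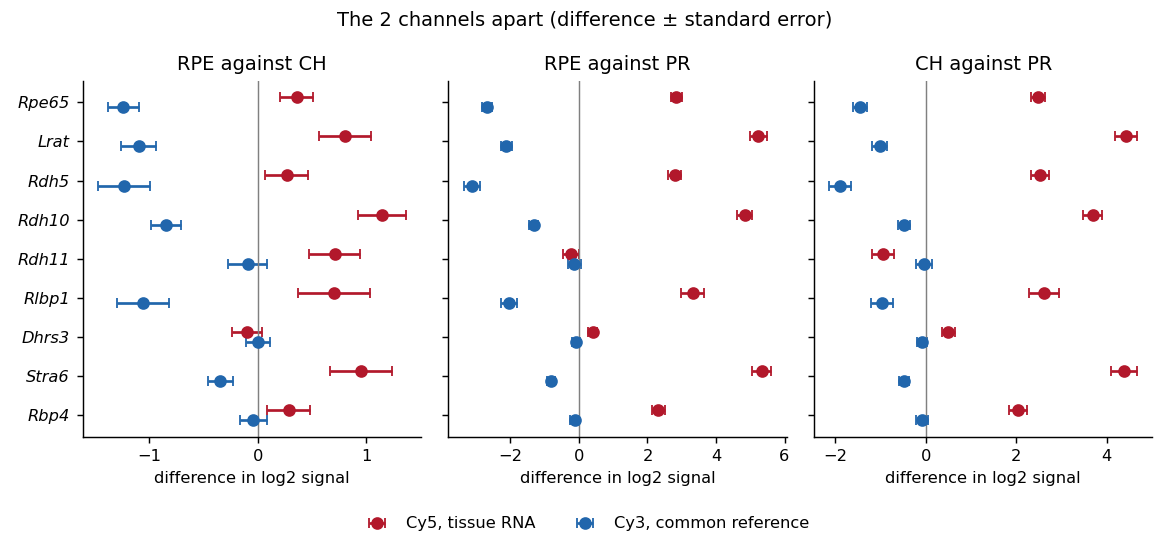
Differences in log2 signal between tissues, apart for Cy5 (tissue RNA, red) and Cy3 (common reference, blue), as points with standard errors, in panels for the 3 comparisons (horizontal scales differ). Cy3 lies left of 0 for Rpe65, Lrat, Rdh5, Rdh10, Rlbp1 and Stra6 in each panel, while it stays near 0 for Rdh11, Dhrs3 and Rbp4.

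Markers of the dissected layers differed between the tissues, though the markers of a list did not all go the same way. The summed Cy5 signal of 10 RPE markers was 1329580 to 1547740 in RPE, 914643 to 1125200 in CH, with CH replicate 3 the highest, and 291163 to 328952 in PR. Of these markers, 3 were called higher in RPE than in CH and 7 higher than in the PR. Against the CH, limma called 0 lower, and 1 was lower at an unadjusted p under 0.05, Mitf (-0.50). Cldn19 was not higher either (-0.22). At least 9 were well above background on every array. The exception was Best1, a chloride channel of the RPE. It differed from the CH by -0.01 and was well above background on 1 of 3 RPE arrays and 0 of 3 CH arrays. The 10 rod markers summed to 1252040 to 1584240 in RPE, 882488 to 1335920 in CH and 2981590 to 4314250 in PR, and all 10 were called higher in PR than in either. The PR sums are floors, since 4, 5 and 9 of the 10 rod spots were saturated on PR replicates 1 to 3, and 1 or 2 RPE marker spots were saturated on each RPE array. On CH replicates 2 and 3, 1 RPE marker spot was saturated. Between RPE and CH, limma called 0 rod markers, and 6 of the 10 were higher in RPE at an unadjusted p under 0.05. All 7 fibroblast markers measured were lower in RPE than in CH, with sums of 287229 to 391973 against 939046 to 1049670. These CH sums are floors, since 1 fibroblast spot was saturated on each CH array. Of 8 melanocyte markers, 3 were called lower in RPE than in CH. At an unadjusted p under 0.05, 7 were lower and 1 was higher, Tyr (0.68). Of the melanocyte spots, 2 or 3 were saturated on each CH array and 1 on each RPE array. Of 8 markers of Müller glia, which also make Rlbp1, 1 was called lower (Dkk3), with sums of 390749 to 458476 in RPE, 567679 to 576825 in CH and 145351 to 219119 in PR. These markers did not share 1 pattern. The mean ratio was highest in CH for Kcnj10, Vim, Dkk3, Abca8a and Gfap and in RPE for Glul. For Slc1a3 (-1.17) and Aqp4 (-1.79) it was highest in PR, though neither was called in any comparison. Of 8 immune markers 1 was called lower, and at an unadjusted p under 0.05, 7 were lower and 1 was higher, Csf1r (0.53). By limma 0 of 8 endothelial and 0 of 8 cone markers were called between RPE and CH, and at an unadjusted p under 0.05 it was 0 and 3. The part of these other cells in the differences of the 9 genes was not tested.

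The other genes of retinoid metabolism were taken from 4 lists. Of 14 further RPE retinoid genes, 2 were called higher in RPE than in CH and 7 higher than in the PR, with medians of 0.52 and 1.22. Called lower were 0 against the CH and 0 against the PR by limma, and 2 and 4 at an unadjusted p under 0.05. Rrh (peropsin), an RPE opsin that binds all-trans-retinal, was 1.61 higher in RPE than in CH (limma, adjusted p = 0.00189), and its difference from the PR was 5.51. Ttr (transthyretin), the partner of Rbp4 in plasma, had a difference of 1.56 from the CH, but its Cy5 was saturated on every array of both tissues, and it was at least 2.62-fold higher in Cy5 in RPE than in PR. Rgr, the RPE retinal G protein-coupled receptor, was not called against the CH at its brightest probe (1.34, limma, adjusted p = 0.0256). Its Cy5 there was saturated on all 3 RPE arrays and on 2 CH arrays, so this size is neither exact nor a bound. The study's own list of RPE signature genes holds Rgr at another transcript entry, above both neighbours. At the brightest probe the saturated Cy5 signal was at least 3.77-fold higher in RPE than in PR. Degs1, a desaturase also described as a retinol isomerase, and Retsat, a retinol saturase, were 2.98 and 1.70 above the PR and not called against the CH (0.91 and 1.07). Dgat2, an acyltransferase of triglyceride synthesis, was 1.66 above the PR and differed from the CH by 0.45 (limma, adjusted p = 0.147).

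Of 4 genes of retinoid handling in photoreceptors, 3 were called lower in RPE than in PR. Abca4, the flippase that clears retinal from photoreceptor discs, differed by -1.65, Rdh12, a photoreceptor retinal reductase, by -2.61, and Rbp3, the retinoid carrier of the space between the layers, by -2.44. Against the CH, limma called 0 of the 4, and 1 was higher at an unadjusted p under 0.05, Abca4 (1.19, adjusted p = 0.00118, with an FC under 2.5). The signs against the PR are opposite to those of the 7 visual cycle genes called there.

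Of 15 genes of retinoic acid synthesis, breakdown and signalling, 6 were called higher in RPE than in PR, and 2 were called lower in RPE than in CH. Those 2 were Aldh1a2, which makes retinoic acid, with a difference of -1.55 (limma, adjusted p = 0.000178), and Cyp1b1, a cytochrome P450 that also oxidises retinoids, with -1.35 (adjusted p = 0.00103). Called above the PR in the RPE were, among others, Cyp26b1 (4.19), which breaks retinoic acid down, Aldh1a2 (3.01), Aldh1a3 (2.70), the receptor Rarg (2.29) and Cyp1b1 (1.54). Cyp26a1 was called only for the CH against the PR (1.95), and differed from the CH by -1.26 in the RPE, an FC under the threshold.

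In the list of 9 genes of carotenoid cleavage and retinoid uptake, Lrp2 (megalin), an endocytic receptor for Rbp4 among other proteins, was called higher in RPE than in CH (1.42, limma adjusted p = 0.00613). Cd36, a fatty acid and lipoprotein receptor, and Stra6l (listed as 1300002K09Rik), another receptor for Rbp4, were called lower (-1.92 and -1.74, adjusted p = 0.000189 and 0.00015). Stra6 and Stra6l thus had opposite signs between RPE and CH, though Stra6 was not called. Both were higher in RPE than in PR, Stra6l by 1.38. Lpl (2.00) and Bco2 (2.09), a carotenoid-cleaving enzyme, were also called above the PR.

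**Figure D5:**
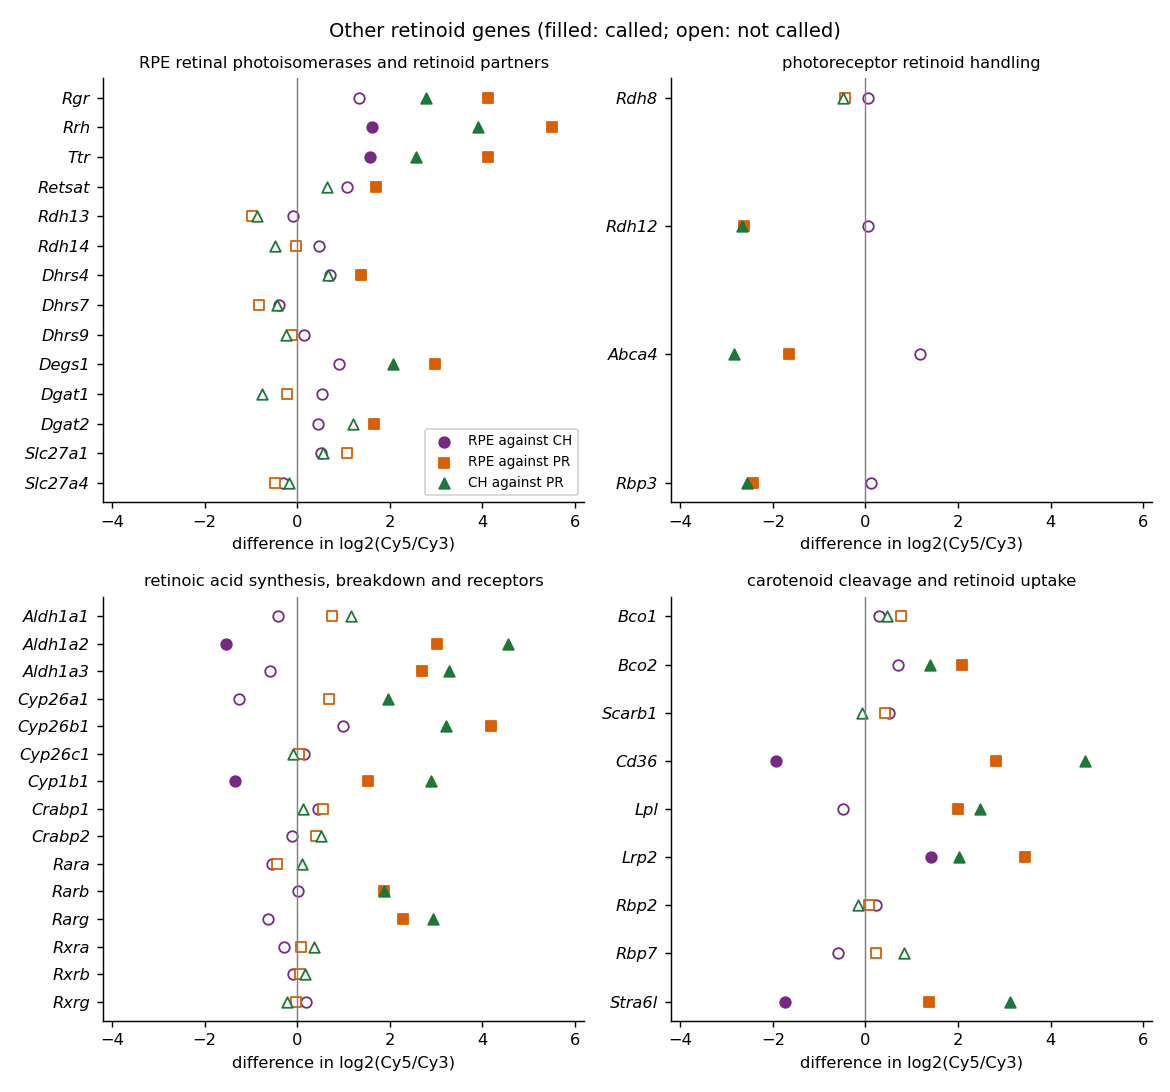
Differences in log2(Cy5/Cy3) for the genes of 4 lists of retinoid metabolism, by comparison (circles RPE against CH, squares RPE against PR, triangles CH against PR; filled where called). The photoreceptor genes Abca4, Rdh12 and Rbp3 lie left of 0 against the PR, and Aldh1a2, Cyp1b1, Cd36 and Stra6l are filled left of 0 for the RPE against the CH.

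The genes most like each of the 9 were found by Pearson's r of the log2 ratio over the 9 arrays, among 17776 other genes that were well above background and not saturated on any array. Since the points fall into 3 tissues and share the reference, r mainly follows the order of the tissue means and is a description. For Rpe65 they were Fam13a, Slco1a4 and Ermap (r = 0.999 each), and for Rdh10 Slc39a4, Krt23 and Mia1 (r from 0.999 to 0.9997). Slc16a9 and Il17re were most like Lrat (r = 0.9997 and 0.999), and Fez2 (r = 0.999) was among those most like Rdh5. Tmem27, Slc13a3 and Gldc were nearest to Stra6 (r from 0.999 to 0.9994), Bend5, St3gal5 and Med29 to Rlbp1 (r from 0.998 to 0.9985), and Decr1 was first for Rbp4 (r = 0.998). Rdh11 and Dhrs3, whose ranges were narrower, had less close partners: Mtx2 (r = 0.979) for Rdh11 and Pcdhb21 (r = 0.974) for Dhrs3. Among the 9 themselves, the 7 genes called against the PR had pairwise r between 0.975 and 0.998, while Dhrs3 had r between 0.85 and 0.93 with these 7 and Rdh11 had r between -0.60 and -0.25 with the other 8.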

How the data were processed

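The authors scanned 9 dual-colour arrays, extracted them with Agilent Feature Extraction 9.5.3.1 and deposited its output, where each spot has a mean signal and a local background as intensity; these were the starting point. The deposited series table holds the authors' processed values on a log2 scale (median 9.31 to 9.40 per array); they correlated at 0.998 with the log2 Cy5 signal here, its normalization steps are not given in the sources used here, and it served only as an alternative. Background was corrected with normexp (offset 50), log2(Cy5/Cy3) was normalized within arrays by loess with control spots at weight 0, outlier spots were dropped (228 to 586 per array) and spots of a probe were averaged. Tissue means were fitted over all 9 arrays with limma 3.58.1 in R 4.3.3 (empirical Bayes, B-H over 39429 probes). Single channels were taken after loess and Aquantile. A probe saturated on every array of a tissue has a bound from the Cy5 means, open to dye bias as no dyes were swapped.

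Slide and scan are those in the file headers, and each slide was 1 scan. Probe positions are on mm9 as deposited. Promoters came from a RefSeq table (GRCm38.p6). On simulated arrays with 200 changed probes the fit recovered 94% of them for RPE against CH and 96% for RPE against PR, with 0 unchanged probes called (38847 probes simulated). Each planted change was larger than the RPE to CH difference of any visual cycle gene described here. The noise was independent between arrays and no spot was saturated. These rates therefore do not describe how often differences of the size of these genes are found. Figures were made with Python 3.11.15 and matplotlib 3.10.9.

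The genes, the lists and the tests were chosen with earlier results of these data known. All 9 genes are named. From each of the 4 retinoid lists, genes called in any comparison are named, at most 6 by the largest absolute difference, at the brightest probe of a gene, and the 3 most similar genes per member were sought. Marker lists covered RPE, rods, cones, Müller glia, endothelium, fibroblasts, melanocytes and immune cells; Col6a3 was not found under that name. Alternatives covered background, normalization, channel, arrays, blocks, marked and dim spots, the variance model, the thresholds and each array left out. 1 gene of the retinoid lists is not reported here and was left out of their counts. Protein sequences were not analysed here.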

Additional observations from a re-analysis of the deposited data

How the results depend on the processing

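The counts of member genes called against the PR (7 for the RPE and 7 for the CH) moved least: they were 7 in every alternative except with saturated spots left out (5 for the RPE, since Rpe65 and Rdh5 then have no RPE value) and in the series table (5 and 6, where up to 3 members per array have no value). The count of 5 called higher in RPE than in CH was less firm. By limma it was 0 with the Cy5 signal in place of the ratio, 0 with Cy5 after quantile normalization alone (chosen after seeing the data) and 0 in the series table (5, 5 and 3 at an unadjusted p under 0.05), 1 with median centring in place of loess (Rdh10) and 3 with saturated spots left out. In that last setting Rpe65 and Rdh5 have no RPE value, and Lrat, Rdh10 and Rlbp1 kept their calls. Leaving out 1 array at a time gave between 2 and 6. Over all probes, 73 were called higher in RPE than in CH in the main fit. That number was 30 with Cy5, 33 with Cy5 after quantile normalization alone and 24 in the series table. With saturated spots left out it was 66. With median centring the median of all probes for the CH against the PR was -0.11 in place of -0.06, and the array-wide count for RPE above CH was 13 in place of 73. With loess, that count was 410 at an FC above 2, and 21 (without CH replicate 2) to 175 (without CH replicate 3) with 1 array left out. Called lower in Cy3 were 3 for the RPE against the PR and 1 for the CH against the PR, which became 1 and 0 (5 at an unadjusted p under 0.05) with quantile normalization of Cy3 alone (chosen after seeing the data). Over all probes, 25 and 22 were called lower in Cy3, and with quantile normalization alone 2 and 13. The replicate block, a fit with the replicate number as a block, left the counts at 5, 7 and 7. The numbers share no stated origin, the deviations of same-numbered arrays correlated between -0.08 and 0.29, and the block moved the array-wide count for RPE above CH from 73 to 68. The block for slide left them at 5, 7 and 7 as well. Single differences reversed once, for Dhrs3 between RPE and CH within slide 3 (0.080 in place of -0.10). Aquantile leaves ratios as they are by construction. The cause of these changes was not tested beyond the missing values named.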

Other observations

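Over all probes with a value on every RPE array, the median difference in the reference signal (Cy3) between RPE and PR arrays was -0.07 for the 27925 probes with a normalized log2 Cy5 below 12 in the RPE, -0.15 from 12 to 14 (6327 probes), -0.13 from 14 to 16 (3546 probes), -0.13 from 16 to 18 (1417 probes) and -0.33 above 18 (115 probes). Of the 9 visual cycle genes, 4 (Rpe65, Lrat, Rdh5 and Rlbp1) were above 18, and their own Cy3 differences lay between -3.12 and -2.03. Among the 37 probes above 18 that were called higher in RPE than in PR, the median Cy3 difference was -2.03. That call uses the ratio, which holds Cy3, so it favours probes with a low Cy3 on the RPE arrays. The cause was not tested.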
